A study of Mus musculus with 8 samples.

Results

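The Gimap cluster is a run of 8 neighbouring genes on mouse chromosome 6, namely Gimap8, Gimap9, Gimap4, Gimap6, Gimap7, Gimap1, Gimap5 and Gimap3 in chromosome order. Its ATAC-seq peaks were taken from 4 libraries of DN3 thymocytes of the C57BL/6 strain, in which a transposase marks accessible DNA. DN3 thymocytes are the T-cell precursors that rearrange and test their T-cell receptor beta chain. In 2 libraries the Notch-Myc enhancer (N-Me), a distal element that links Notch signals to Myc, was wild type. In the other 2 libraries its GATA sites 1 and 2 carried a homozygous mutation, and no other allele or treatment is given for these 4. The N-Me lies on another chromosome than the Gimap genes. The series also has 4 samples of T-cell leukaemia, which were left aside. Whether the libraries of a genotype stem from different mice is not stated, so p-values measure only the spread between these libraries, which may be technical.

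The members were chosen by name and position. All peaks that overlapped a member gene, or lay within 25 kb of one, were kept, which gave 1 continuous window of 173.7 kb (chromosome 6, 48622186 to 48795851, GRCm38). It held 35 and 41 of the 169255 and 156372 peaks of the wild-type lists, and 35 and 33 of the 121022 and 119023 peaks of the mutant lists. Overlapping peaks of the 4 lists were merged into 41 regions, of 180321 in the genome. No other protein-coding gene lay in the window.

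GIMAP proteins (GTPases of the immunity-associated proteins) are GTP-binding proteins that sit mostly on membranes inside lymphocytes and are known for their part in lymphocyte survival. Their genes stand side by side in mammals and are expressed mainly in T cells and other lymphoid cells, and also in endothelium. Several change in expression as thymocytes pass the checkpoints of T-cell receptor selection. Gimap5 is the best known, since its loss causes a severe lack of T cells in rats and mice.

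Promoter sequences of 4 members are shown first, because the results below turn on where peaks lay around these starts. They run from 250 bases before to 50 bases after a start, 5′ to 3′ on the gene's strand, as given by RefSeq (GRCm38.p6). Capitals mark matches, on either strand, to the motifs searched. Gimap8 (chr6:48647111-48647410, plus strand) had the highest peak of the cluster. The Gimap8 window printed is that of its second start (48647361), and peaks covered all 300 bases of it in every list. Peak positions below are counted from its first start (48647234), whose window is not printed. Gimap7 (chr6:48718371-48718670, plus strand) and Gimap1 (chr6:48738797-48739096, plus strand) stood among the next highest in wild type. Gimap4 (chr6:48684328-48684627, plus strand) is the member whose window no peak touched in any library.
Gimap8: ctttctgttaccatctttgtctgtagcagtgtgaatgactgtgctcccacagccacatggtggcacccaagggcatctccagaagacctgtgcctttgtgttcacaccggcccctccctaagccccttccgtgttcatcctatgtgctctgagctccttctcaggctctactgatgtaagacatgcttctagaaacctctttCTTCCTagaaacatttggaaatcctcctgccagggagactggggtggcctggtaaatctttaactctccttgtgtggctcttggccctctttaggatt
Gimap7: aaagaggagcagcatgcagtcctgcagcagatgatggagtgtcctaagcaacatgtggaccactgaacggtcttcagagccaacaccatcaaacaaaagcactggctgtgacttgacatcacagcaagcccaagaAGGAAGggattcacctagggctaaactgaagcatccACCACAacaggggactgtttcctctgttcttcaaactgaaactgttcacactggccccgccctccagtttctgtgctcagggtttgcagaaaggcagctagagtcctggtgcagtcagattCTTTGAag
Gimap1: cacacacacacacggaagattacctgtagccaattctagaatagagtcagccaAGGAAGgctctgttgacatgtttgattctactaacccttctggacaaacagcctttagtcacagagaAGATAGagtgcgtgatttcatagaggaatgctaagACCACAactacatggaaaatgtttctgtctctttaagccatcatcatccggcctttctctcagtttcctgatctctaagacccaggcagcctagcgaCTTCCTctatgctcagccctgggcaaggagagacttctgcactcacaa
Gimap4: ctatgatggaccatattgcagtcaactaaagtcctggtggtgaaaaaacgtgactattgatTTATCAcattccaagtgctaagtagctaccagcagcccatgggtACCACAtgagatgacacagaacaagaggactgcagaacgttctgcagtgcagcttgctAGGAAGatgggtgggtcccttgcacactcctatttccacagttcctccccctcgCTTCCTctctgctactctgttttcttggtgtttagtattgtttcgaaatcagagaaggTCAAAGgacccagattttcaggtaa

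All 8 members were matched in the promoter table, with 9 starts, since Gimap8 has 2. The GATA motif was searched as AGATAA or AGATAG or TGATAA or TGATAG, and was found in the windows of Gimap4 (TTATCA read on this strand, from −189) and Gimap1 (AGATAG, from −130). Of 21263 windows at protein-coding starts, 26% held it. The RUNX motif TGTGGT lay in Gimap4, Gimap7 and Gimap1, each time as ACCACA, from −145, −79 and −95, and in 15% of all windows. The ETS motif AGGAAG was present in 7 of 9 member windows and in 34.4% of all windows. By gene it was in 7 of 8 members, all but Gimap6. The other ETS form, CCGGAA, was in 0 of 9 member windows and 18.7% of all. TCF/LEF (CTTTGA) matched in Gimap4 and Gimap7 (14.4% of all windows) and RBPJ (TGGGAA), the DNA-binding partner of Notch, in Gimap3 (24.5%). The E-box CACCTG matched in Gimap9 (19.7%) and the E-box CAGCTG in no member (15.6%). These matches describe the letters only, and none was tested for binding.

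Member promoters shared a low content of CpG dinucleotides, which the choice of members did not use. The 9 windows held 2 to 8 CpGs each, with a median of 4, against a median of 13 over all 21263 windows. The ETS form CCGGAA holds a CpG itself, and the part of CpG content in its absence was not tested. Their GC content ran from 43.3% (Gimap6) to 57.3% (Gimap9), against a median of 56.3%. CpG-poor starts seldom carried a peak in these cells. Of the 8731 windows with 8 CpGs or fewer, 27.8% had a peak within 1 kb in all 4 libraries, against 92.6% of the 12532 richer windows. Counted by gene, it was 24.3% of the 6730 genes all of whose windows had 8 CpGs or fewer.

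**Figure D1:**
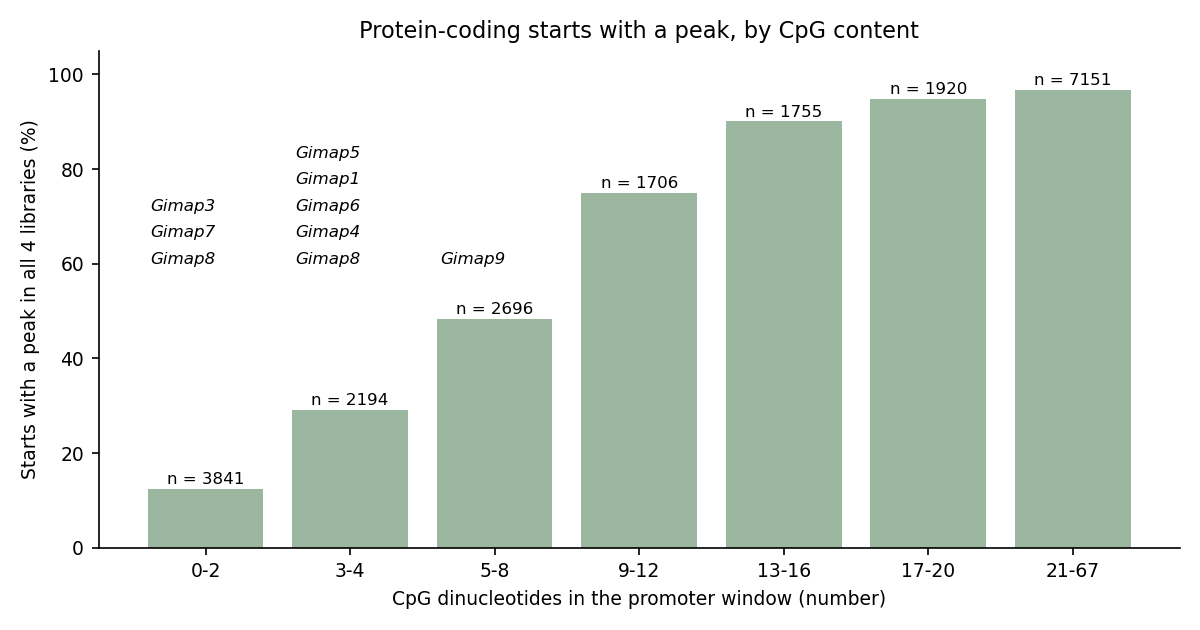
Share of protein-coding start windows with a peak within 1 kb in all 4 libraries (y axis, %), by the number of CpGs in the 300 bp window (x axis), with the number of windows above each bar. Gimap names stand over the bin that holds their window, at a height that carries no value, and Gimap8 is named once for each of its starts. All members stand in the 3 bins with the fewest CpGs, where 12.5%, 29.1% and 48.4% of starts had a peak.

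Most Gimap starts carried a peak. One lay within 1 kb of the start in all 4 libraries for 7 of 8 members, Gimap3 being the exception, while 66.5% of 17492 protein-coding genes met this measure. A peak lay over the start itself in all 4 libraries for 6 of 8 members, all but Gimap4 and Gimap3, against 60.8% of genes. The counts are too small to set 7 of 8 apart from the share of all genes. Neighbouring genes were mixed: of 14 protein-coding genes with a known start within 250 kb of the window, 10 had a peak in all 4 libraries and 4 in none.

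**Figure D2:**
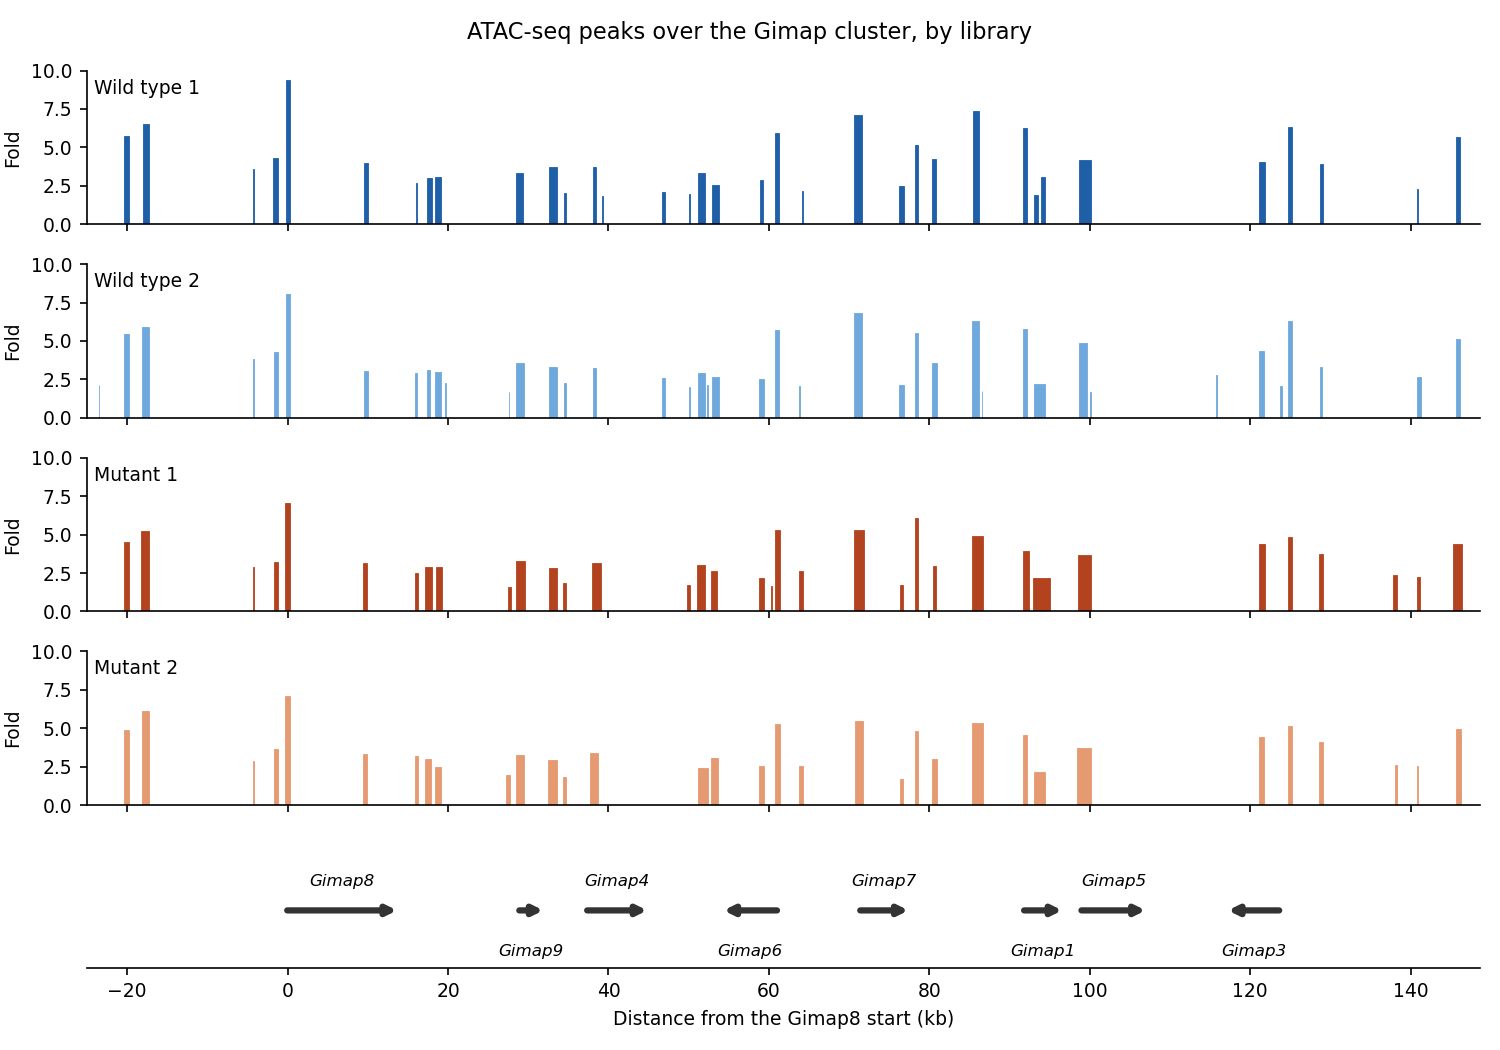
Peaks over the cluster in each library, as bars at their position (x axis, kb from the first Gimap8 start), as wide as the peak and as high as the authors' fold enrichment (y axis). Arrows below show the member genes and their direction. The 4 libraries have their highest bar at the Gimap8 start, and share a stretch with no peak in Gimap5 beyond its first part.

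Gimap8, a large member with several GTP-binding domains (chromosome 6, 48647186 to 48660875, plus strand), had the highest fold enrichment of the window in every list. Fold enrichment is the peak caller's mean ratio of reads to local background across a peak, a value of the authors that belongs to its own list. At the Gimap8 start it was 9.38 and 8.03 in the wild-type lists and 7.02 and 7.11 in the mutant lists. These peaks stood above 96.2%, 94.4%, 93.9% and 93.2% of the peaks of their lists. Gimap8 was the only member above the median fold of all called protein-coding starts in each of the 4 lists, which was 6.28, 6.08, 5.41 and 5.59 in the same order.

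Gimap7, whose protein stimulates GTP hydrolysis when it pairs with itself or a relative (48718621 to 48724636, plus strand), had a fold of 7.12 and 6.83 in wild type and 5.28 and 5.46 in mutant. It was above the median start in both wild-type lists and below it in both mutant lists. Gimap6, linked to autophagy through its binding of a GABARAP protein (48701583 to 48708244, minus strand), had 5.94 and 5.73 in wild type and 5.33 and 5.30 in mutant. Its 4 values lay just under the median start of each list.

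Gimap1, required for the survival of mature T and B cells (48739047 to 48743795, plus strand), had a fold of 6.26 and 5.76 in wild type and 3.94 and 4.54 in mutant. Gimap5 (48746197 to 48754200, plus strand) had 4.18 and 4.84 in wild type and 3.66 and 3.69 in mutant. Both had lower values in the mutant lists, as did the median start, and fold is not compared between lists here.

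Gimap9 (48676121 to 48679116, plus strand) and Gimap4, which has been linked to the pace of T-cell death (48684578 to 48692062, plus strand), had the lowest folds among the 7. Gimap9 had 3.34 and 3.57 in wild type and 3.30 and 3.22 in mutant. A long non-coding RNA, Gm46958 (48675832 to 48676809), overlaps the Gimap9 start, so this peak cannot be assigned to 1 of the 2 genes. Gimap4 had 3.71 and 3.23 in wild type and 3.15 and 3.40 in mutant. Gimap9 and Gimap4 changed places between replicates of either genotype, so their order is not set by these data.

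Gimap8 came first in all 4 lists, and Gimap5 came after Gimap8, Gimap7, Gimap6 and Gimap1 in all 4. Gimap1 stood before Gimap6 in both wild-type lists, and Gimap6 before Gimap1 in both mutant lists, but in wild type 2 these were nearly level (5.76 and 5.73). Gimap7 followed Gimap8 except in mutant 1, where Gimap6 (5.33) and Gimap7 (5.28) were close as well.

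**Figure D3:**
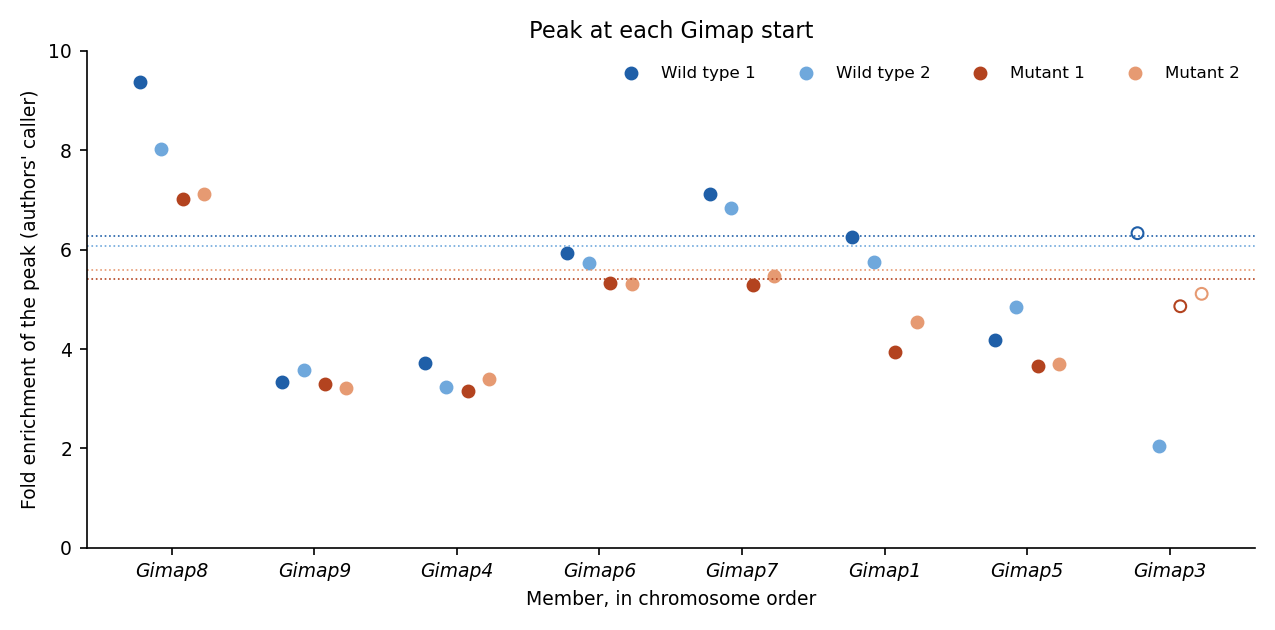
Fold enrichment (y axis) of the highest peak within 1 kb of each member's start, by library (colours). Open circles at Gimap3 are the closest peak where none lay within 1 kb, and dotted lines give the median over all called protein-coding starts in each list. Gimap8 stands above these lines in every list and Gimap9, Gimap4 and Gimap5 below them.

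To place each start against the same genes in each list, the starts of the 11636 genes called in all 4 libraries were ranked by fold. This measure was chosen after the data were seen. Gimap1 stood above 46.8% and 42.0% of them in wild type and above 22.2% and 29.5% in mutant, a difference of −18.5 percentage points, and 6.45% of all genes had a lower one. For Gimap7 the shares were 60.3% and 60.2% (wild type) and 46.9% and 46.5% (mutant), which is −13.5 points, and 10.4% of genes had a lower value. For Gimap4, Gimap6 and Gimap9 the mutant ranks were above the wild-type ranks, by 3.28, 4.35 and 3.50 points. Gimap8 (−4.69) and Gimap5 (−3.98) had ranks that overlapped between genotypes.

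As a group the members did not stand apart in rank. Ranks were lower in both mutant than in both wild-type lists for 2 of 7 members, against 28.8% of all genes. They were higher for 3 of 7, against 39.7%. The start peaks of Gimap1 and Gimap7 were also wider in mutant (widths are given below), and the part of width in these ranks was not tested.

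The peaks at the starts of Gimap8, Gimap6 and Gimap4 differed most clearly in outline between the 2 genotypes. The Gimap8 peak was 458 and 441 bp wide in wild type and 608 and 600 bp in mutant. Positions are given from the first Gimap8 start (48647234), with a minus sign for upstream. The downstream edge was shared, at 277 bp in both wild-type lists and at 285 and 277 bp in mutant. The upstream edge lay at −180 and −163 bp in wild type and at −322 bp in both mutant lists. The outlines thus differed on the upstream side.

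Gimap6 showed the same form. Its peak was 502 and 492 bp wide in wild type and 703 and 690 bp in mutant. The edge inside the gene lay at 308 and 298 bp in wild type and at 304 and 298 bp in mutant. The upstream edge lay at −193 bp in both wild-type lists and at −391 bp in mutant 2, with that of mutant 1 a few bases beyond.

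At Gimap4 the peak began 732 and 722 bp past the start in wild type, and 627 and 407 bp past it in mutant. It was 413 and 423 bp wide in wild type and 1043 and 1000 bp in mutant, the widest gap in outline among the members. In wild type 1 a separate 126 bp peak lay further inside Gimap4 with a fold of 1.82. None of these peaks reached the annotated start or the sequence printed for Gimap4.

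The other starts were also wider in mutant. Gimap1 peaks were 515 and 536 bp wide in wild type and 790 and 574 bp in mutant. Gimap7 had 994 and 1011 bp against 1180 and 1062 bp, and Gimap9 had 929 and 981 bp against 1073 and 986 bp. Gimap5 had 1565 and 1056 bp against 1677 and 1667 bp, and in wild type 2 a separate weak peak lay past the end of this one.

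The start peak was thus wider in both mutant than in both wild-type lists for 7 of 7 members with a call, where 52.9% of the 11636 genes called in all 4 libraries had this order. The ratio of mutant to wild-type width had a median of 1.30 over the 7 members and 1.06 over all genes (quartiles 0.997 and 1.19). Peaks of the whole lists were also wider in mutant, with a median of 284 and 302 bp in wild type and 444 and 421 bp in mutant, so wider peaks were not particular to the cluster. Among CpG-poor genes 43.4% had this order, with a median ratio of 1.06. The smallest gap left between peaks and the shortest peak were both larger in the mutant lists (given with the processing). With both made common to all lists the count was still 7 of 7, against 49% of genes. This was done on the finished lists, so it cannot undo other differences in how the peaks were called. The width measure was chosen after the data were seen, so 7 of 7 is not read as a trait of the cluster. Neighbouring starts of 1 locus are not independent, and no test of the 7 against other genes was made.

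**Figure D4:**
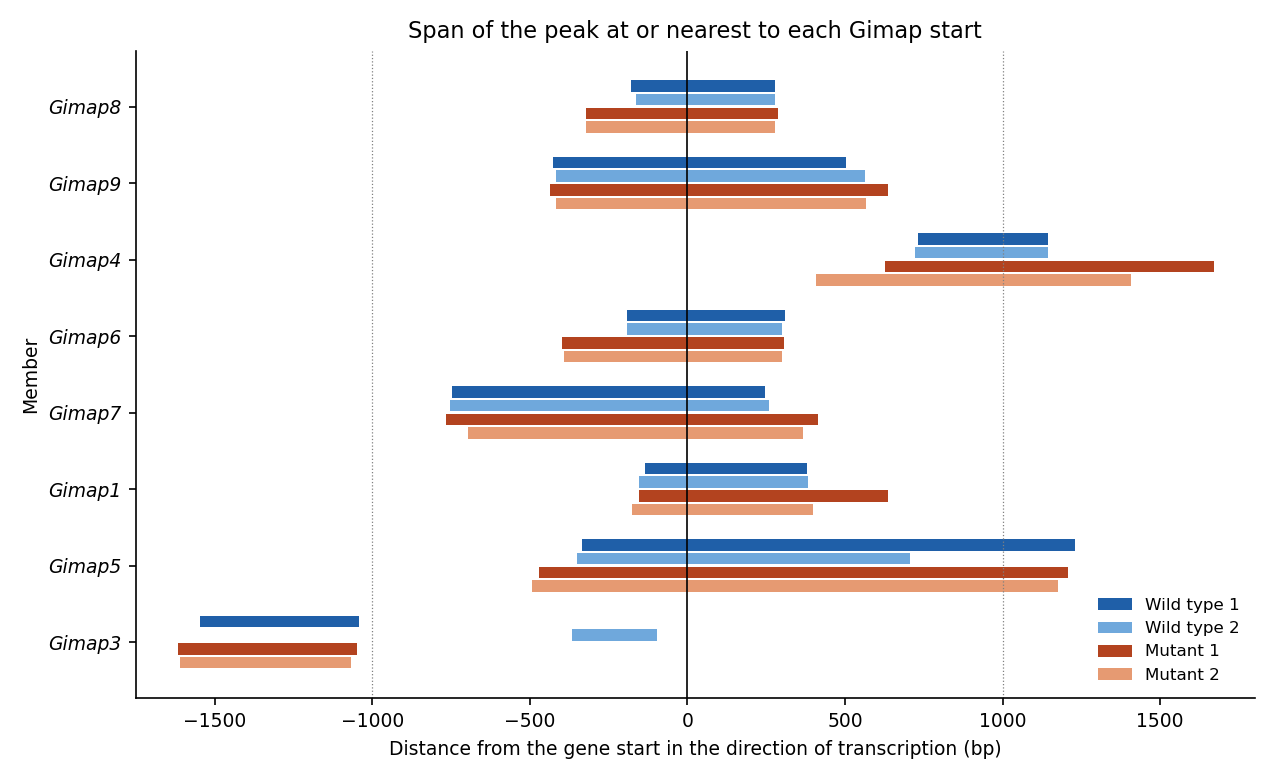
Span of the peak of highest fold within 1 kb of each start, or of the closest peak where there was none (x axis, bp from the start in the direction of transcription, with dotted lines at 1 kb), for each member and library (colours). Mutant peaks reach further upstream at Gimap8 and Gimap6 and are wider at Gimap4, while at Gimap3 only wild type 2 has a peak close to the start.

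Gimap3, known in mice for its effect on which mitochondrial DNA is kept in blood cells (48764464 to 48770851, minus strand), was the member without a steady peak at its start. Wild type 2 had a weak peak there, 99 bp upstream, 267 bp wide, with a fold of 2.05. In the other 3 lists the closest peak began 1042 bp (wild type 1), 1049 bp (mutant 1) and 1067 bp (mutant 2) upstream, just outside the 1 kb limit. That upstream region (48771893 to 48772467) was called in all 4 libraries, with a fold of 6.33 and 6.28 in wild type and 4.86 and 5.11 in mutant. Its rank by fold among the shared regions was 5 and 4 in wild type and 7 and 6 in mutant. A second region inside Gimap3 (48768349 to 48769074) had 4.02 and 4.36 in wild type and 4.37 and 4.40 in mutant.

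Across the window, 31 of 41 regions (75.6%) were called in all 4 libraries, where 56.7% of all regions of the genome were. In the 250 kb on either side it was 44 of 67 regions (65.7%). Members had a median of 11 such regions within 25 kb, from 8 at Gimap3 to 14 at Gimap6, and the median protein-coding gene had 6 (quartiles 2 and 9). Windows of neighbouring members overlap, so these are not separate counts. Merged regions were also wider in the window, with a median of 631 bp, against 430 bp on either side and 344 bp over the genome. The part of width in the shares called in all 4 libraries was not tested. Of the 31 regions, 6 lay over a member start, 12 overlapped a member gene, and 19 lay outside all members. Exons and introns are not given by the gene table used, so positions within genes are stated only by distance.

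Of the 10 shared regions with the highest lowest fold, 3 lay over a start (Gimap8, Gimap7 and Gimap6) and 6 outside member genes, and 1 was the region inside Gimap3. The most prominent one between genes lay 5083 bp upstream of the Gimap1 start (48732503 to 48733964), on the side of Gimap7. Its fold was 7.37 and 6.30 in wild type and 4.90 and 5.34 in mutant, higher than that of the Gimap1 start in each of the 4 lists. The highest peak there was 800 and 908 bp wide in wild type and 1462 and 1344 bp in mutant.

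Another narrow region lay 820 bp beyond the end of Gimap7 (48725456 to 48725840). Its fold was 5.13 and 5.55 in wild type and 6.07 and 4.80 in mutant, with −log10 q of 26.32, 28.08, 62.86 and 27.52. Its rank among the 31 shared regions was 2 in mutant 1 and 9 in mutant 2, and 10 and 8 in wild type, so the mutant replicates did not share the high rank.

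The remaining 3 strong regions outside member genes and away from a start lay at the borders. A region 19709 bp before Gimap8 (48626847 to 48627477) had a fold of 5.71 and 5.46 in wild type and 4.49 and 4.89 in mutant. The region from 48628982 to 48630002, inside the transcribed pseudogene AI854703, had 6.52 and 5.88 in wild type and 5.21 and 6.08 in mutant. On the far side a region over the long non-coding RNA Gm30714, 21726 bp from Gimap3 (48792577 to 48793609), had 5.66 and 5.15 in wild type and 4.36 and 4.96 in mutant. All 3 were called in every library.

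**Figure D5:**
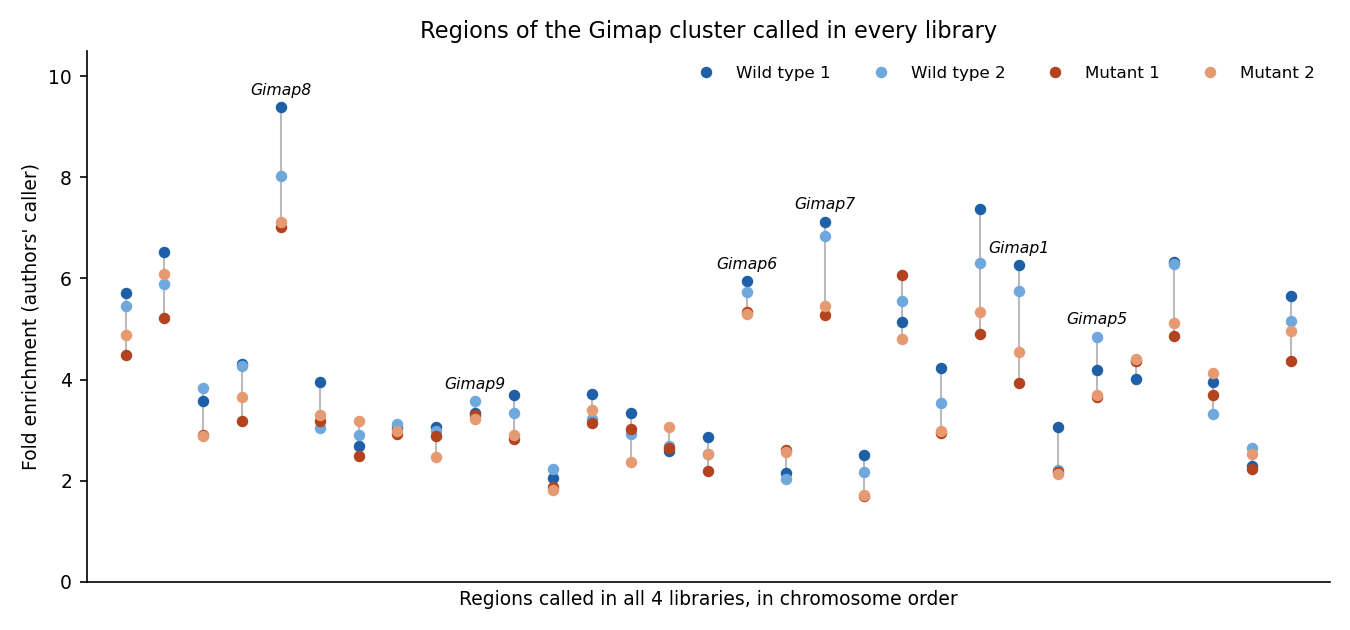
Fold enrichment (y axis) of the 31 regions called in all 4 libraries, in chromosome order (x axis), with 1 point for each library and a grey line from the lowest to the highest. Names mark the 6 regions over a member start, and the tall unnamed region between Gimap7 and Gimap1 is the one 5083 bp upstream of Gimap1.

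The order of the 31 shared regions by fold was much alike in all libraries. Spearman's rho between lists was 0.952 for the wild-type pair, 0.934 for the mutant pair and 0.902 to 0.928 for the 4 pairs across genotypes. These are descriptions over 31 regions that share libraries and neighbourhood. The overlap of peaks in bp (Jaccard index) within the window was 0.812 for the wild-type pair and 0.811 for the mutant pair, and 0.658 to 0.726 across genotypes. Over whole lists it was 0.764 and 0.786, and 0.666 to 0.681 across.

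Only 2 regions of the window were specific to a genotype. Both wild-type libraries shared 33 regions of the window, and 1 of these (3.03%) was called in neither mutant library, where 15% of such regions of the genome were. It lay 1883 bp beyond the end of Gimap4 (48693945 to 48694339), with a fold of 2.09 and 2.62, a −log10 q of 1.41 and 3.18 and a width of 370 and 371 bp. Both mutant libraries likewise shared 33 regions, and 1 (3.03%) was called in neither wild-type library, against 1.75% in the genome. It lay 14230 bp upstream of Gimap3 (48785081 to 48785576), with a fold of 2.36 and 2.62, a −log10 q of 2.68 and 3.11 and a width of 496 and 225 bp. All 4 peaks had a −log10 q under 5. Without wild-type replicate 1 the first count was 5, and it was 2 without wild-type replicate 2 or mutant replicate 1. The second was 2 without wild-type replicate 2 or mutant replicate 2. The share over the genome was not computed with a library left out, so these counts are not read as a trait of the cluster.

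A pair of other regions differed in outline and not in their call, in opposite directions. Their −log10 q values are given as values of each list and, with depth unknown, are not compared between lists. The first lay 2717 bp upstream of Gimap6 (48710961 to 48711474). Wild type 1 and 2 had peaks of 113 and 134 bp there, at different places, with a −log10 q of 1.96 and 1.67. The mutant lists had peaks of 449 and 435 bp with 9.13 and 7.97. The second lay inside Gimap7, 4784 bp past its start (48723405 to 48724043). Wild type had peaks of 622 and 639 bp there with a −log10 q of 5.64 and 3.04, and the mutant lists had peaks of 358 and 343 bp with 1.99 and 1.34. Both regions were singled out after their values were seen. Upstream of Gimap9, a region 1070 bp from the start (48674524 to 48675065) was called in both mutant lists and wild type 2, with a fold of 1.60, 1.93 and 1.68.

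By library, the window held 38 ± 4.24 peaks in wild type and 34 ± 1.41 in mutant (SD, n = 2 each; exact two-sided permutation p = 0.667). Peaks covered 19.1 and 20.2 kb in wild type and 25.2 and 22.9 kb in mutant, a difference of −4.39 kb, wild type minus mutant (exact permutation p = 0.33, the smallest that 2 against 2 libraries allow). The groups did not overlap in covered length. Whole lists covered 72.1 and 70.8 Mb in wild type and 72.3 and 69.3 Mb in mutant. These totals are not a like measure, since whole lists held more peaks in wild type (169255 and 156372 against 121022 and 119023). Median peak width in the window was 502 and 442 bp in wild type and 608 and 600 bp in mutant. Over whole lists it was 284 and 302 bp in wild type and 444 and 421 bp in mutant. With the same shortest peak and smallest gap imposed on all lists the difference in the window was −4.33 kb (exact permutation p = 0.33), and among peaks of fold 4 or more it turned to 0.53 kb (exact permutation p = 0.667). The direction for the number of peaks turned too, to −2.50 with −log10 q of 5 or more.

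Of 11 genes linked to GIMAP proteins, 10 were matched, and all 10 had a start peak in all 4 libraries, as did 66.5% of all protein-coding genes. They include Bcl2, Bcl2l1 and Mcl1, which hold back cell death, Bax, Bak1 and Bcl2l11, which promote it, and Gabarap, Gabarapl1 and Gabarapl2 of autophagy. Bcl2l1 had the highest fold of these, 7.81 and 7.71 in wild type and 6.93 and 7.17 in mutant. Of 6 genes of T-cell quiescence and survival, the 3 that were matched, Il7r, Klf2 and Foxo1, were called in all 4.

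The label DN3 was checked against start peaks of marker genes. All 11 matched of 12 DN3 and T-lineage genes, Ptcra, Rag1, Il2ra and Cd3e among them, were called in all 4 libraries, against 66.5% of all protein-coding genes, and so were all 3 matched B-cell genes. Of endothelial markers, Tie1, Tek and Emcn had no peak in any library and Kdr had one in 4. Gata1 and Hba-a1 of red cells, Ncr1 of NK cells and Elane of myeloid cells had none. Start peaks in all 4 libraries were also present for 2 of 4 myeloid, 2 of 4 erythroid and 2 of 3 NK genes. Their part in the results on the cluster was not tested. Mpo, a myeloid gene, was the listed gene called only in wild type, with a fold of 2.28 and 2.51.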

How the data were processed

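ATAC-seq peak lists of 4 DN3 libraries were used, 1 list for each library. The submitters' processing notes name MACS2 2.1.1, Bowtie2 2.3.3.1, cutadapt 1.16 and SAMtools 1.7, with the build mm10. Caller settings, and whether reads were filtered or shifted for the transposase, were not given in the labels. Deposited columns are a score (10 times −log10 q, truncated), fold enrichment (a ratio to local background) and −log10 p and −log10 q of each peak in its own list. The lists hold no read counts, so depth is unknown and a missing peak means not detected. Shortest peaks were 64, 65, 73 and 87 bp and smallest gaps 257, 261, 293 and 349 bp (wild type 1 and 2, mutant 1 and 2).

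Peaks of the assembled nuclear chromosomes were merged where they overlapped by 1 bp or more, and a library had a region if its peaks overlapped it. Starts and promoter sequences came from a RefSeq table (GRCm38.p6), and genes without an entry there were not counted. Named were all members, their start regions, genotype-specific regions of the window, the 10 strongest shared regions and list genes that differed between genotypes. The members and lists were chosen with earlier results of these data known, and the rank and width measures after seeing the data. The interval code was tested on simulated lists. Exact permutation tests compared libraries. Alternatives were stricter peaks, a common shortest peak and gap, equal peak numbers, 50% cover, other windows, peaks over the start, a replicate block and leaving out each library. Python 3.11.15, numpy 2.4.6 and pandas 2.3.3 were used.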

Additional observations from a re-analysis of the deposited data

How the results depend on the processing

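Of 95 recomputed values, 73 were counted as kept. A difference in the number of peaks or in covered length was kept if its sign stayed the same, whatever its size. A count was kept if it was equal or similar in size, and the Gimap1 rank difference if it moved by 5 points or less. P-values played no part in this. The total is no measure of robustness, because part of the outcomes were fixed in advance. The replicate block leaves the difference itself unchanged. Leaving out 1 library cannot turn the sign for covered length, since the groups did not overlap. Over gene bodies alone the difference in the number of peaks was 1 and in covered length −1.53 kb. The wild-type-only count (1) became 0 at a −log10 q of 5, at equal peak numbers and over gene bodies alone, 2 at fold 4 or more, and 1 to 5 when 1 library was left out. The count called only in mutant was 0 at fold 4 or more, within 10 kb and over gene bodies alone, 4 with equal numbers of peaks and with 50% cover, and 1 to 2 with 1 library left out. Genome-wide shares were not computed for these alternatives, so neither count is read as a trait of the cluster. At fold 4 or more, 10 regions were called in all 4 libraries, and 12 over gene bodies alone, both by construction. In the fold setting 3 members had a start called in all 4 libraries, 1 ranked lower in mutant and 3 had a wider start peak in mutant, of the 3 left. The difference in the number of peaks turned to −2.50 with −log10 q of 5 or more and to −3.50 with equal numbers of peaks, and that in covered length to 0.53 kb at fold 4 or more (the cause was not tested). With 1 library left out the difference in peaks was 1 to 7, in covered length −5.54 to −3.24 kb and in the Gimap1 rank −22.1 to −14.7 points. The lowest and highest counts with 1 library left out were 31 and 32 regions called in all libraries, 7 starts called, 7 wider start peaks and 2 to 3 members ranking lower. Starts called and wider start peaks cannot be lost when a list is removed, so their unchanged 7 shows no stability. What same-numbered libraries share is not stated. With the replicate block (sign flips within pairs, smallest p 0.5) the difference was 4 peaks (exact p = 1) and −4.39 kb (exact p = 0.5). Depth is unknown, and 2 libraries a group cannot give p below 0.33.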
